A study of Mus musculus and Homo sapiens with 4 samples.

Results

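The remainder of a messenger RNA is here the set of ribosome footprints counted for the whole transcript but for none of its 3 counted parts, which are the 5' leader, the coding region and the 3' trailer. It was computed for mouse transcripts as the whole-transcript count minus the counts of the 3 parts, where both libraries list all of them. Of 93380 mouse transcripts listed, 37919 had all 3 parts in both libraries and 24550 of these had at least 100 coding reads summed over the libraries. The 14600 members (15.6% of those listed and 59.5% of the 24550) also had at least 100 summed remainder reads. Another 9950 transcripts fell under the remainder minimum, 510 of them with no remainder read at all, and 119 had enough remainder reads but too few coding reads. The rule used sums over both libraries and did not use the ratio between them. These were sums of raw counts, in which the deeper library weighs more. Near the minimum they can therefore admit more readily a transcript that is higher in that library.

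The study compared ribosome footprints between drugs that arrest elongation, and between captured and uncaptured ribosomes. The mouse libraries were made from E14, a line of embryonic stem cells (ES cells) of the genetic background 129/Ola, in feeder-free culture with the cytokine LIF, which holds ES cells in their undifferentiated state. In the cycloheximide library the drug acted for 60 s at 100 µg/ml, and in the emetine library the drug acted for 60 s at a dose that the labels do not state. Both libraries were made by RNase I digestion and pelleting of ribosomes, and there was no library of cells without an inhibitor. Each group had 1 library of 1 cell line, so no p-value was computed, every comparison is between libraries, and intervals cover counting error only. The identity of the cells was not checked against marker genes, because the name tables used here hold 0 of the 14600 member identifiers; members are therefore described as a population and not by gene.

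A translating ribosome shields a short stretch of messenger RNA from nuclease, and sequencing these stretches shows where ribosomes were. Ribosomes assemble at the start codon after the small subunit has scanned the leader, move codon by codon through the coding region and are released at the stop codon, and dwell at the start and the stop is a known feature of footprint maps. Cycloheximide binds the exit site of the large subunit, whereas emetine binds the exit site of the small subunit, and both block the movement of the ribosome to the next codon. Counts of a coding region are often taken without its ends, so that slow steps at the start and stop codons do not weigh on the estimate of translation. The files state no bounds for the parts and no positions. Where the remainder reads lie was therefore not tested, and no sequence is shown.

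Summed over the members, which were chosen for having remainder reads, the remainder took a larger share of footprints with emetine than with cycloheximide. In the cycloheximide library the members held 12661047 remainder reads, which is 7.99% of their 158423029 transcript reads (95% exact binomial interval 7.988 to 7.996). In the emetine library they held 8659920 of 79688573 reads, or 10.9% (interval 10.860 to 10.874). In both libraries the remainder was the next largest class after coding reads and outweighed leader reads, which took 2.96% and 4.38%, and trailer reads, which took 3.48% and 3.96%. Isoforms overlap and may be counted for the same reads, which makes such intervals narrower than the true counting error.

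For a single transcript the level is given as remainder reads per 100 reads of its own coding region. With cycloheximide the median member had 7.65 remainder reads per 100 coding reads, with quartiles at 4.12 and 15.7 and a range from 1.61 to 55.0 between the 5th and 95th percentiles. With emetine the median was 10.1, with quartiles at 5.13 and 21.3 and percentiles of 1.92 and 74.6. The minimum on remainder reads sets much of these medians, which were 5.85 and 7.34 with a minimum of 1 remainder read and 13.2 and 19.2 with 1000. The distributions overlapped over most of their width and the emetine library was higher at every one of these points. The remainder exceeded the coding region itself in 294 members (2.01%) with cycloheximide and in 442 (3.03%) with emetine. Members kept their order between the libraries, with a Spearman correlation of 0.901 over the 14600 levels; these points share libraries and, between isoforms, reads. The minimum of 100 remainder reads sets a floor on the level that falls as coding reads rise, and coding reads are also its denominator. A downward trend is thus partly built in. With this limit, the level was lower in members with more coding reads in both libraries over most of the range. It was 83.3 and 106 reads per 100 in members with 100 to under 300 summed coding reads, where the minimum of 100 remainder reads admits high levels alone. It was 7.66 and 9.86 from 1000 to under 10000 reads, and 4.86 and 6.54 from 10000 to under 100000 reads. In the 217 members with 100000 or more coding reads it was higher again, at 6.76 and 11.1.

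**Figure D1:**
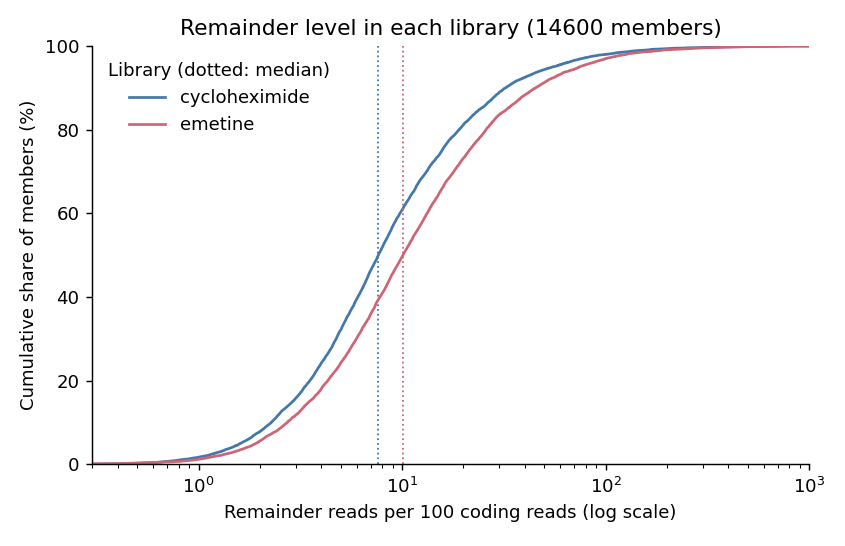
Cumulative share of the 14600 members (vertical axis, percent) at or below each level of remainder reads per 100 coding reads (horizontal axis, log scale), for the cycloheximide and the emetine library, with dotted lines at the medians of 7.65 and 10.1. The emetine curve lies to the right of the cycloheximide curve through the body of the distribution; 10 members with cycloheximide and 21 with emetine lie outside the axis.

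Each member was then compared between the drugs as a ratio of ratios, its remainder per coding read with emetine over that with cycloheximide. This difference, given on the log2 scale with 0.5 scaled reads added to each count, barely depends on how the libraries are scaled. Its median was 0.41, a 1.33-fold higher remainder with emetine, with quartiles at -0.02 and 0.80. It was above 0 in 10837 of 14600 members (74.2%), so about 1 member in every 4 went the other way. At least 2-fold higher with emetine were 2314 members (15.8%), and at least 2-fold lower were 413 (2.83%). Of the 413 lower members, 339 had under 300 summed remainder reads, as did 1039 of the 2314 higher and 6291 of all 14600 members. Among the 9189 transcripts with at least 100 remainder reads in each library, 43 were lower and 1479 higher. That minimum selects on the libraries compared, of which emetine is the shallower, so it can itself remove members that are low with emetine. With the deeper library thinned to the depth of the other, 12929 members were left, of which 245 were lower and 2095 higher. Among all 28604 mouse coding regions with at least 100 reads, scaled to a median of 0, the shares past 2-fold were 1.46% higher and 1.19% lower. That is a single ratio and not a ratio of ratios. By the like measure, over the own coding region, 19.1% of all mouse leaders compared were at least 2-fold higher and 3.42% lower. For trailers these shares were 22% and 3.46%.

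The spread between members was wider than counting error. The scaled median absolute deviation of the difference was 0.61, whereas the counting standard error of a single member had a median of 0.17 and quartiles of 0.11 and 0.23. The 95% log-normal counting interval lay above 0 in 8104 members (55.5%), below 0 in 1857 (12.7%) and included 0 in 4639 (31.8%). With 1 library per drug, how much of this spread would recur between cultures cannot be told. Just inside the minimum, the 505 members with 100 to 109 summed remainder reads had a median difference of 0.35 (quartiles -0.23 and 0.97). Just outside it, the 554 transcripts with 90 to 99 reads had a median of 0.25 (quartiles -0.34 and 0.84).

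How the difference splits between remainder and coding region depends on the scaling, which places a typical coding region near 0 by construction. The split is therefore a description on that scale only. Scaled so that the median of all mouse coding regions is 0, the remainder of the members had a median log2 ratio of 0.31, a level 1.24-fold higher with emetine, and was above 0 in 10344 members (70.8%). The coding regions of the same members had a median of -0.08 and were above 0 in 6082 (41.7%). The remainder and coding ratios were weakly related, with a Spearman correlation of 0.22 across members.

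The difference was larger in the members with most coding reads, a count of footprints that is not divided by length and is no measure of message abundance. Its median was 0.37 in 286 members with 100 to under 300 coding reads, 0.36 in 1179 with 300 to under 1000 and 0.37 in 9067 with 1000 to under 10000. It was 0.48 in 3851 members with 10000 to under 100000 reads and 0.72 in 217 with 100000 or more, of which 196 (90.3%) were above 0. The remainder's own scaled ratio did not go up along this range. It went down, from 0.56 in the lowest bin through 0.32 in the middle one to 0.21 in the highest. The coding regions went down further, from 0.17 through -0.03 to -0.51, and the gap between the lines is the difference given above. The bins were formed on summed coding reads, which also stand in the denominator.

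**Figure D2:**
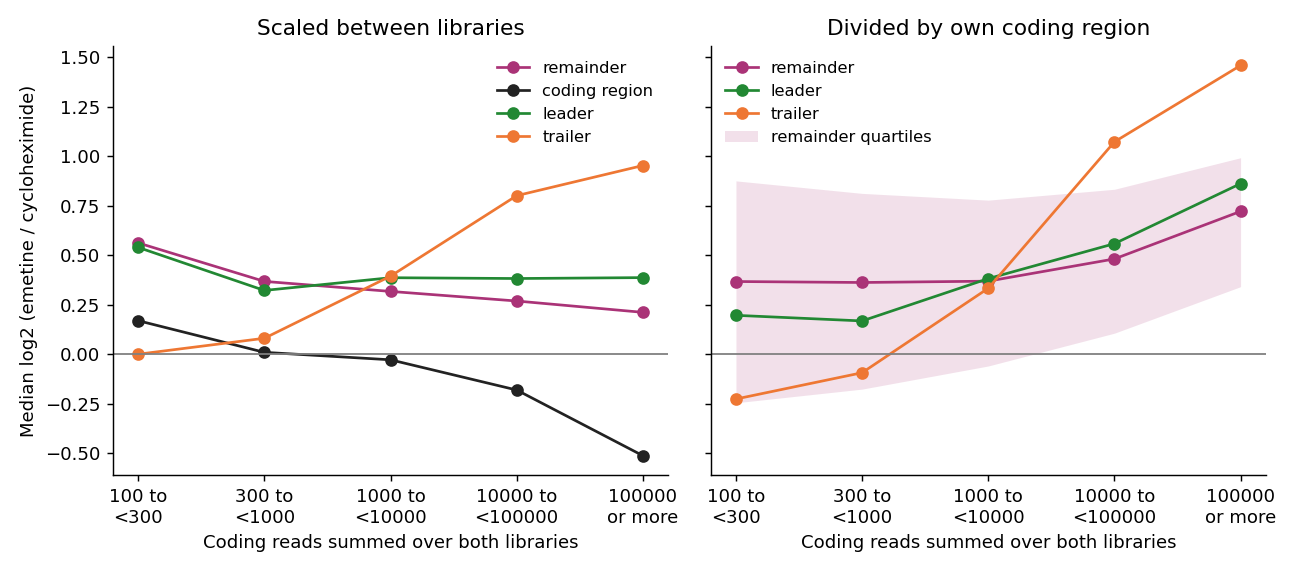
Median log2 ratio of emetine over cycloheximide (vertical axis) for members in 5 bins of summed coding reads (horizontal axis); left, each part scaled between libraries, and right, each part divided by its own coding region, with the band marking the quartiles of the remainder. Leader and trailer points use members with at least 100 reads in that part. On the left the coding region falls to -0.51 and the remainder to 0.21 in the highest bin, and on the right the remainder reaches 0.72.

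Members were also ordered by their summed remainder reads, which the rule used and which stand in the numerator, so this order is a description only. The median difference was 0.33 in 6291 members with 100 to under 300 remainder reads, 0.40 in 5088 with 300 to under 1000, 0.50 in 2827 with 1000 to under 10000 and 0.79 in 386 with 10000 to under 100000. The share at least 2-fold lower with emetine was 5.39% in the first of these bins and 0.518% in the last, and counting error is also largest in the first. Over these bins the remainder's own scaled ratio went down from 0.36 to 0.21 and that of the coding regions from 0.05 to -0.55. The 10 members with most remainder reads held 4.77% of all member remainder reads with cycloheximide and 5.73% with emetine. All 10, with 9 different remainders among them, were higher with emetine, by 0.73 to 1.70, where 74.2% of all members were above 0. Ordered by the level instead, the median went from 0.34 in the quartile of members with the lowest remainder per coding read to 0.45 in the highest, a small change against the width of the distribution.

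Transcript models in these files overlap, so members are not independent. The 14600 members had 12337 different pairs of coding counts, and 63 members repeated all counts of another. Coding counts were shared by 3941 members in 1678 groups. In 1196 of these groups all members had the same remainder. In the other 482 groups the remainder differed between members, with a median ratio of 1.09 between the highest and lowest, and in 22 groups this ratio was 2 or more. The difference between the drugs had the same sign in all members of 454 of the 482 groups (94.2%).

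The extremes are given for members with at least 1000 summed remainder reads. ENSMUST00000110504 had 3370 remainder and 21728 coding reads with cycloheximide, and 5708 and 7990 with emetine. Its remainder thus went from 15.5 to 71.4 per 100 coding reads, 4.61-fold higher (95% counting interval 4.38 to 4.84). Both terms contributed, since its scaled remainder ratio was 1.57 and its scaled coding ratio -0.63, and no leader read was counted in either library. ENSMUST00000139231 had 776 remainder and 777 coding reads with cycloheximide, and 723 and 159 with emetine. Its level went from 99.9 to 455 per 100, 4.54-fold higher (interval 3.73 to 5.54), and 1 other member has the same remainder and coding counts. Here the coding region was the larger term, with a scaled ratio of -1.47 against 0.71 for the remainder.

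At the other end, ENSMUST00000057934 had 991 remainder and 7747 coding reads with cycloheximide, and 134 and 5316 with emetine. Its level went from 12.8 to 2.52 per 100, 5.06-fold lower (interval 4.21 to 6.09). ENSMUST00000108840 had 1001 and 7682 reads with cycloheximide, and 150 and 5286 with emetine, so its level went from 13.0 to 2.84 per 100, 4.58-fold lower (interval 3.85 to 5.46). On the scaling used here, nearly the whole difference of both lay in the remainder, with scaled ratios of -2.07 and -1.92 against 0.27 for each coding region. The counts of the pair are close to each other, and whether they share reads was not tested. The member with most coding reads of all (933570 and 402252) had 4141 and 2261 remainder reads. Its level was low, at 0.444 with cycloheximide and 0.562 with emetine, under the 5th percentiles of 1.61 and 1.92. Its log2 difference of 0.34 lay between the quartiles of all members.

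Leaders and trailers of the same transcripts were compared with the remainder next. Among members, 8208 had at least 100 summed leader reads and 3448 at least 100 trailer reads. Divided by its own coding region, the leader had a median log2 difference of 0.44 (73.6% above 0, against 70.9% of all mouse leaders) and the trailer of 0.44 (69.8%, against 63.7% of all mouse trailers), and the remainder of the same transcripts had 0.44 and 0.42. The medians depended on which transcripts were taken: the trailer had 0.25 over all 5467 mouse trailers compared, and in the 2056 members with enough reads in both flanks the trailer had 0.63, the leader 0.50 and the remainder 0.45. At least 2-fold higher with emetine were 1684 leaders (20.5%, against 19.1% of all 10499 mouse leaders compared) and 1010 trailers (29.3%, against 22% of all 5467 mouse trailers compared). The remainder of the same members was at least 2-fold higher in 1298 (15.8%) and 518 (15.0%). The trailer distribution was wide, with quartiles at -0.11 and 1.14, against -0.03 and 0.90 for leaders and -0.02 and 0.80 for the remainder of all members.

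**Figure D3:**
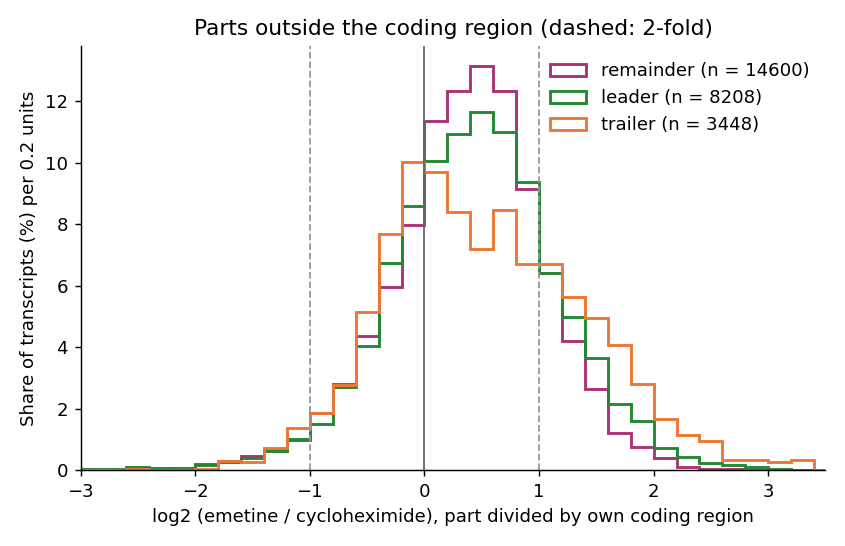
Distribution of the log2 ratio of emetine over cycloheximide after division by the own coding region (horizontal axis). The vertical axis gives the share of transcripts per step of that axis in percent. Shown are the remainder of 14600 members, and 8208 leaders and 3448 trailers of members with at least 100 reads in that part. Dashed lines mark 2-fold; the remainder peaks above 0 like the leader and has the smallest share beyond 2-fold on the right (15.8%), and 7 values in all lie outside the axis.

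Within a transcript the remainder and the leader differed little on balance and much one by one. The median of remainder minus leader was -0.03, with quartiles at -0.57 and 0.51, and the remainder was further up than the leader in 3975 of 8208 members (48.4%). The median of remainder minus trailer was -0.16, with quartiles at -0.81 and 0.53, and the remainder was further up in 1508 of 3448 (43.7%). The trailer value turned to 0.31 in the 1398 members with at least 500 trailer reads. The remainder was above 0 in 4904 of the 6039 members whose leader was above 0 (81.2%) and in 1443 of the other 2169 (66.5%). For trailers the shares were 80.0% and 61.6%. Among 2056 members with enough reads in both leader and trailer, all of remainder, leader and trailer were above 0 in 1078 (52.4%) and none was in 111 (5.40%).

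This relation was seen with the denominator that the parts share and hardly without it. Divided by the coding region, the differences of remainder and leader had a Spearman correlation of 0.24 over 8208 members, and those of remainder and trailer 0.25 over 3448. Scaled between libraries and not divided, the same counts gave 0.04 and -0.03. Leader and trailer behaved alike, with 0.33 divided and -0.04 undivided over 2056 members. The scaled coding ratio itself was related to the remainder (0.30 in members with enough leader reads) and hardly to the leader (-0.02) or, in members with enough trailer reads, the trailer (-0.07). These correlations are across transcripts of the same pair of libraries and describe the libraries; the effect of counting error on them was not tested.

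**Figure D4:**
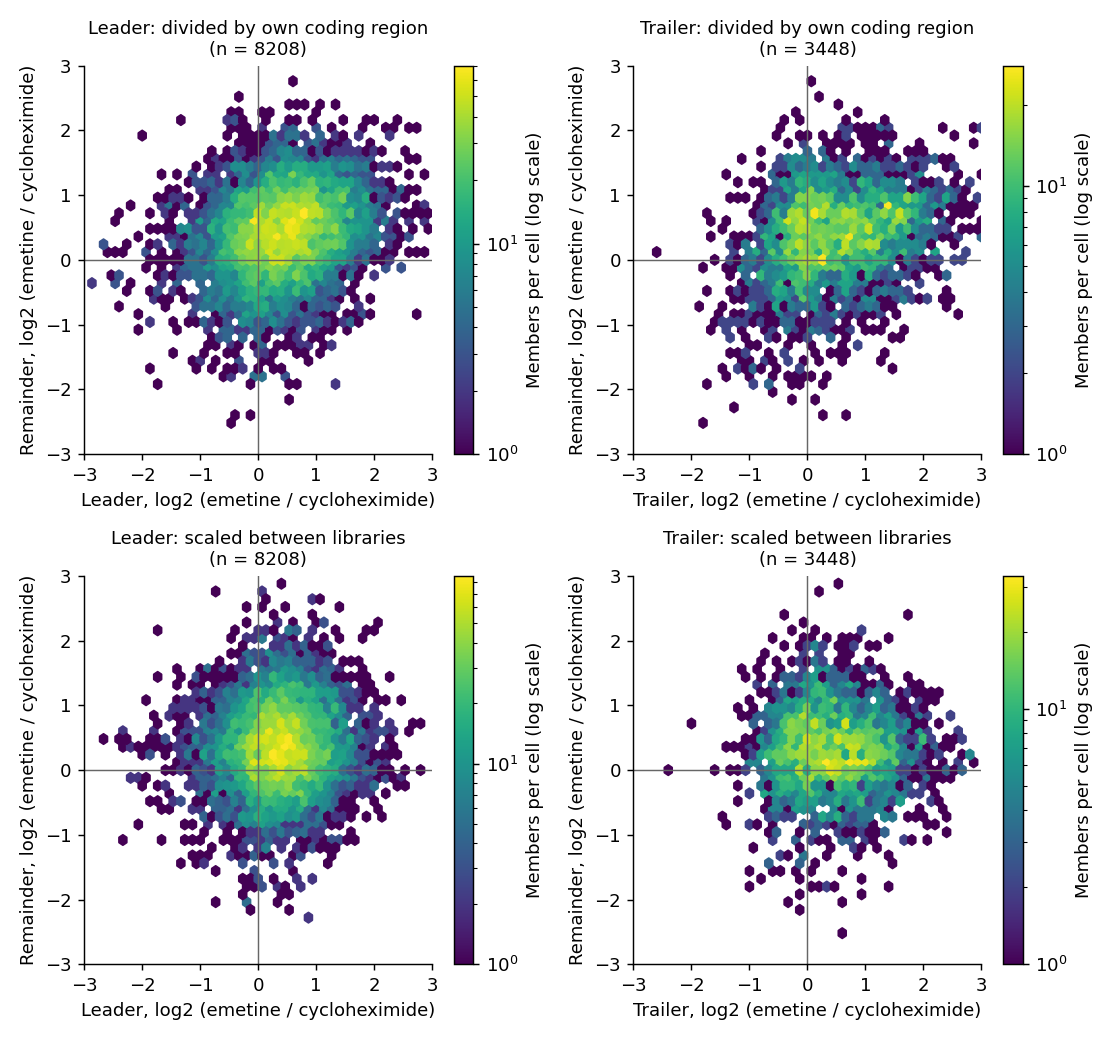
Log2 ratio of emetine over cycloheximide for the remainder (vertical axes) against the leader (left, 8208 members) and the trailer (right, 3448 members); colour gives the number of members per cell on a log scale. Above, both were divided by the coding region, and the clouds lean upward (Spearman 0.24 and 0.25); below, both were scaled between libraries and the clouds lean little (0.04 and -0.03). From 5 to 23 members per panel lie outside the axes.

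The trailer's difference varied with the number of trailer reads per coding read, a ratio that shares its denominator, and the remainder's varied less. With a minimum of 100 trailer reads, low values of this ratio occur only in members with many coding reads. Over the bins of coding reads the median trailer difference went from -0.23 in the lowest to 1.46 in the highest, and these orders were not separated. Over the quartiles of trailer reads per coding read, the median trailer difference was 1.21, 0.75, 0.22 and -0.16, while the remainder of the same members had 0.59, 0.40, 0.40 and 0.24. The scaled coding ratio went from -0.32 in the first of these quartiles to 0.11 in the last. Over the quartiles of leader reads per coding read, the leader had 0.54, 0.43, 0.46 and 0.35 and the remainder 0.48, 0.42, 0.43 and 0.41. Members with few reads in either flank differed in the same direction. In 5000 members with under 100 reads in leader and in trailer the median was 0.36, and in 235 members with no leader and no trailer read at all it was 0.47, with 173 of them (73.6%) above 0. The quartiles of these 235 members were -0.10 and 0.85, and why their flanking parts held no read was not tested.

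Transcripts that lack a counted part, and so are not members, hold reads outside the parts they have. With a coding part alone, 301 transcripts met the same minimums; their reads outside it went from a median of 3.80 per 100 coding reads with cycloheximide to 8.48 with emetine, and the median log2 difference was 1.01 (quartiles 0.44 and 1.68). At least 2-fold higher were 153 of them (50.8%), against 15.8% of members. The remainder minimum was met by 301 of 891 coding-only transcripts with enough coding reads and by 14600 of 24550 with all 3 parts. With coding and leader parts the median was 0.43 in 231 transcripts (44 at least 2-fold higher, 19%), and with coding and trailer parts 0.28 in 1126 (241, 21.4%). The transcripts with a coding part alone were higher than members at like numbers of coding reads too. From 1000 to under 10000 coding reads the median was 1.01 in 156 of them and 0.37 in members, and from 10000 to under 100000 reads the quartiles were 0.40 and 1.52 in 108 of them and 0.11 and 0.83 in members. A missing part may be absent from the annotation or too short to be counted, and which of these holds was not tested. The difference between these classes has no test, since each drug has 1 library.

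**Figure D5:**
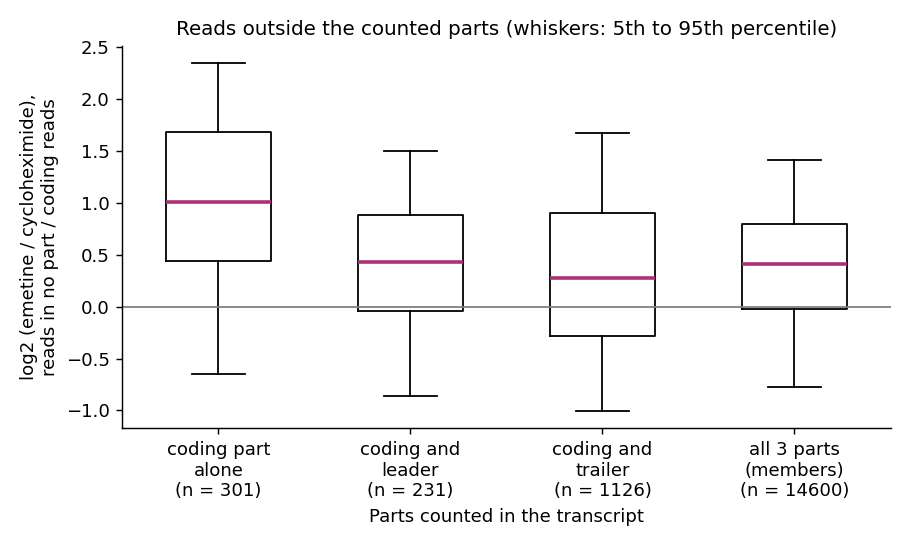
Log2 ratio of emetine over cycloheximide of reads in no counted part per coding read (vertical axis) by the parts a transcript has (horizontal axis), as medians, quartile boxes and whiskers from the 5th to the 95th percentile. Transcripts with a coding part alone have a median of 1.01, and the other classes have 0.43, 0.28 and, for the members, 0.41.

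The same quantity was taken in the HEK pair, from a human embryonic kidney line grown with 10% serum, where footprints captured through a tag on the large subunit (bound) are compared with the uncaptured input. Over 2370 transcripts that met the rule, the median level per 100 coding reads was 13.7 remainder reads for the input library and 11.98 for the bound one. The median log2 difference of bound over input was -0.18, with 787 (33.2%) above 0, 12 (0.506%) past 2-fold upward and 43 (1.81%) past 2-fold downward. The median was thus below 0 in this pair and above 0 in the mouse pair. The levels of the pairs are not compared, since the same minimum of reads admits other transcripts at the lower HEK depth. The cells, the preparation, the depth and the contrast all differ between the pairs and cannot be told apart.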

How the data were processed

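Ribosome footprints were sequenced in 4 libraries, 1 per group; the mouse pair was used here and the HEK pair for comparison. The authors deposited raw read counts for each transcript and each of its parts, in columns for the whole transcript, coding region, 5' leader and 3' trailer per the file headers. The submitters' processing notes name TopHat2 2.0.7, Bowtie2 2.0.6 and CASAVA 1.8, with the genome builds mm10 and hg19, but not what each was used for. The sources used here do not give the counting rule, annotation release, bounds of the parts or treatment of multiple matches, and name no molecular identifiers.

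Whole-transcript counts, with overlapping isoforms, totalled 342552347 (cycloheximide), 188700177 (emetine), 17446956 (HEK input) and 30208713 (HEK bound). The remainder was computed per library; no value was below 0. Scaled ratios set the median of coding regions with at least 100 reads to 0 (depth ratio 1.76 in mouse, cycloheximide over emetine). Single members have log-normal 95% counting intervals from the counts of remainder and coding region. Tools were Python 3.11.15, pandas 2.3.3, NumPy 2.4.6, SciPy 1.17.1, and edgeR 4.0.16 for its TMM scaling as an alternative. The scripts that compute the ratios were checked on simulated counts; this is no test of the drugs. The rule for naming transcripts was the 2 highest and 2 lowest differences among members with at least 1000 remainder reads; gene lists were not used, since identifiers could not be paired with genes. Members, lists and rules were chosen with earlier results of these data known. Alternatives were other minimums, priors, denominators, scalings and thresholds, counting repeated rows once and thinning the deeper library.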

Additional observations from a re-analysis of the deposited data

Results flagged for a closer look

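Transcripts under the remainder minimum enter none of the comparisons of members, yet their remainder was also higher with emetine than with cycloheximide. The 9950 transcripts with all 3 parts, at least 100 coding reads and under 100 remainder reads held 218333 remainder reads for 8285061 coding reads with cycloheximide and 158573 for 5140335 with emetine. Pooled, this is 2.64 and 3.08 remainder reads per 100 coding reads, a ratio of 1.17, against 9.34 and 13.5 and a ratio of 1.44 in the members. In the 119 transcripts with too few coding reads the pooled level went the other way. It was 756 remainder reads per 100 coding reads with cycloheximide (27991 for 3702) and 698 with emetine (18220 for 2610). This set was defined by few coding reads, which are the denominator of the level.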

How the results depend on the processing

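A median counted as moved when it left the 95% rank interval of its main value, which treats transcripts as independent and is narrow; shares and correlations were judged by binomial and Fisher intervals, and counts by a ratio of 1.5. By this measure 44 of 93 alternatives kept the value, 47 moved it and 2 turned its sign. The alternatives for transcripts that lack a part, and the priors in the HEK pair, were chosen after seeing the data and moved nothing. No paired analysis was possible because there is only 1 library of each group, and leaving 1 out would end the comparison.

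The median difference of the remainder was above 0 in each alternative run. It was 0.39, 0.48 and 0.55 with minimums of 30, 500 and 1000 remainder reads and 0.50 with 10000 coding reads. With the minimum of 100 remainder reads set in the cycloheximide library it was 0.38, in the emetine library 0.51 and in each library 0.48; such a minimum selects on the library compared. It was 0.43 with the deeper library thinned, 0.34 over the whole transcript, 0.38 over the sum of the 3 parts, and 0.45 in members with leader and trailer reads. Higher and lower members numbered 5578 and 1132 at 1.5-fold and 88 and 30 at 4-fold. The number of transcripts counted changes with the minimum. With 30 remainder reads they numbered 3619 and 1137 of 19920 transcripts, and with 500 they numbered 861 and 36 of 5841. With 1000 they numbered 508 and 19 of 3221, and with 100 in each library 1479 and 43 of 9189. Thinning left 2095 higher and 245 lower among 12929 members, in place of 2314 and 413 among 14600.

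Levels per 100 coding reads with cycloheximide and emetine were 6.75 and 8.66 with 30 remainder reads, 10.8 and 14.9 with 500, 13.2 and 19.2 with 1000, and 5.85 and 7.34 with 1. Shares were 7.87% and 10.5% without the 10 members with most remainder reads, and 7.66% and 10.3% over all transcripts with the 3 parts; counting identical rows once gave 7.987% with cycloheximide. Remainder against trailer was -0.32 with 30 trailer reads and 0.31, the opposite sign, with 500; the cause was not tested. Correlations with leader and trailer were 0.044 and -0.027 without the coding denominator, where the value for trailers changes sign, and 0.27 and 0.34 with 500 reads in the part. The scaled remainder ratio was 0.36 with total counts, which shift all ratios by 0.05; TMM shifted them by 0.0057. The HEK difference was -0.21 with 500 remainder reads. Pooled with no remainder minimum, the log2 difference was 0.26, 0.27, 0.46 and 0.79 in the successive bins from 300 coding reads. Low counts limit single members most: counting intervals include 0 in 31.8% of them.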
